A study of Homo sapiens with 6 samples.

Results

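The RNA levels of 9 tight junction genes were followed in cells labelled MDA-MB-231, with and without knockdown of the long non-coding RNA Smyca. The 9 genes were the claudins CLDN1, CLDN3, CLDN4, CLDN7 and CLDN12, the tight junction protein occludin (OCLN), the junctional adhesion molecule F11R, and the scaffolds TJP1 and TJP3. They were chosen by name, with earlier results of these data known. They were matched by symbol to the Ensembl identifiers of the count data, so that 9 of 58302 genes are described here. The 2 groups were cells labelled MDA-MB-231 that express control shRNA or Smyca shRNA #1, with 3 libraries each. They are called control and Smyca knockdown. MDA-MB-231 is an established human breast cancer line. Both groups are labelled as that 1 line and carry an shRNA, so no library represents cells without one. The knockdown group stands for a single shRNA, and p-values measure the spread between these libraries. The study's text calls the repeats biological, while the labels do not say whether they came from separate cultures.

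Tight junctions seal the space between neighbouring epithelial cells near their apical side. Claudins are membrane proteins whose extracellular loops pair across the cell border and decide which ions and molecules pass, while occludin and its relatives shape the strands that claudins form. Junctional adhesion molecules hold the cell border together, and the zonula occludens scaffolds on the cytoplasmic side tie the claudins to actin. Cells that undergo epithelial-mesenchymal transition are known to lose claudins and occludin, and the repressors of that programme bind E-boxes in the promoters of such genes. The comparison therefore asked whether the RNA of the tight junction differed between cells with and without Smyca knockdown.

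The promoters of 8 of the 9 genes matched RefSeq (build GRCh38.p14), with 14 annotated starts in all. Their 250 bases before the start were searched on both strands for the E-box CAGGTG, whose letters on the other strand read CACCTG, and for the palindromic Smad element GTCTAGAC. The E-box was in 5 of the 14 windows and in 4 of the genes. It was in 17.5% of 35116 promoter windows of the same length. CLDN7 held it 4 times before its start 2, at 174, 135, 20 and 9 bases. OCLN held it 33 bases before start 1 and 133 bases before start 2. TJP1 held it 88 bases before start 1, and TJP3 held it 7 bases before start 2. The Smad element was in 0 of the 14 windows and in 0.182% of all promoter windows. Shown here are the windows of CLDN4 and CLDN12, the genes whose control and knockdown libraries did not overlap, and that of CLDN7, which has the most E-boxes. They are written 5′ to 3′ on the strand of the gene, with E-boxes in capitals. The windows lie at chr7:73830746-73830995 on the plus strand for CLDN4, at chr7:90403211-90403460 on the plus strand for CLDN12 and at chr17:7262479-7262728 on the minus strand for CLDN7.
CLDN4: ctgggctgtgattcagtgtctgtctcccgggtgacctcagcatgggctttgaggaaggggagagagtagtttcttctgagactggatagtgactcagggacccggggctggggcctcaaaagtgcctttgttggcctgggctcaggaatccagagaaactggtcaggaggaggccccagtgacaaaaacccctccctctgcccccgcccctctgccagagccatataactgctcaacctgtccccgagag
CLDN12: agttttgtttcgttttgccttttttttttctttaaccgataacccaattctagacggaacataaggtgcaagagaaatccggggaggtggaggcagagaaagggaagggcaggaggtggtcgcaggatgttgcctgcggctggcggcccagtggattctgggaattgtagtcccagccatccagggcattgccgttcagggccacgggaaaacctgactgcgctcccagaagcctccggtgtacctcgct
CLDN7, start 2: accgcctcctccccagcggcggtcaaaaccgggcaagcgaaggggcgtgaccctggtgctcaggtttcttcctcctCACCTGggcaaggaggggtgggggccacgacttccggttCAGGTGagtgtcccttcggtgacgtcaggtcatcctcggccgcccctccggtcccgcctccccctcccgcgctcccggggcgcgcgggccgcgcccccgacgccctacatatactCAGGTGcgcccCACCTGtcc
The windows of CLDN4 and CLDN12 held neither motif, with GC contents of 58.8% and 54.4%, against 71.2% for that of CLDN7. A match describes these letters only, and the binding of a factor was not measured in these libraries.

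Total counts lay between 14999307 and 16501085 per library. MIR23AHG, the gene that RefSeq lists for Smyca, was at 25.0, 19.5 and 22.0 normalized CPM (CPM, counts scaled to a common depth with the TMM library size) in the control and at 10.5, 6.97 and 5.61 in the knockdown, in the direction of the labels in each library. The log2 fold change of MIR23AHG (control over knockdown) was 1.53, with an adjusted p of 0.111 with edgeR, which is not under 0.05. DESeq2's Wald test gave an adjusted p of 3.71e-05. The libraries labelled MDA-MB-231 were checked against marker genes, with levels per length in RPKM (normalized CPM per kilobase of the authors' gene length). MDA-MB-231 is widely described as mesenchymal and claudin-low, with little E-cadherin. All 6 mesenchymal markers (VIM, CD44, AXL, CAV1, ZEB1 and MSN) were over 1 RPKM in every library. So were all 6 epithelial markers, among them the keratin gene KRT8 at 3304 to 5761 RPKM, EPCAM at 207 to 295 and the E-cadherin gene CDH1 at 32.1 to 135. Of 10 gut markers, 3 were over 1 RPKM in every library, which were the gut and liver factor HNF4A (25.6 to 76.0 RPKM), the microvillus gene VIL1 (99.1 to 225) and CDX2 (2.63 to 4.79), and CDX1 had 0 counts. Further, 3 of 4 luminal breast markers (ESR1, PGR and FOXA1) and 3 of 4 hepatocyte markers had at most 3 counts in any library. The epithelial part of this profile and the levels of HNF4A and VIL1 go against what is known of MDA-MB-231. The libraries are therefore named by their labels. Summed over its list, the mesenchymal level was 439 to 944 RPKM in the control and 481 to 737 in the knockdown, and without MSN, the most abundant of the list, 173 to 345 and 95.05 to 161. The epithelial sum was 5917 to 7475 and 6374 to 8702 RPKM. The gut sum was 130 to 234 RPKM and 271 to 308, carried by HNF4A and VIL1, and without both it was 5.56 to 6.96 and 6.18 to 8.10. Control repeat 3 was the lowest library for HNF4A (25.6 RPKM), VIL1 (99.1) and MSN (266). Control repeats 1 and 2 were at 65.7 and 73.4 RPKM for HNF4A, 152 and 154 for VIL1 and 599 and 558 for MSN. LGALS4 of the gut list had the opposite order to VIL1, with each control library above each knockdown library. By edgeR, 0 markers passed the study's criteria. In bulk RNA fewer cells of a type and less RNA per cell cannot be told apart.

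**Figure D1:**
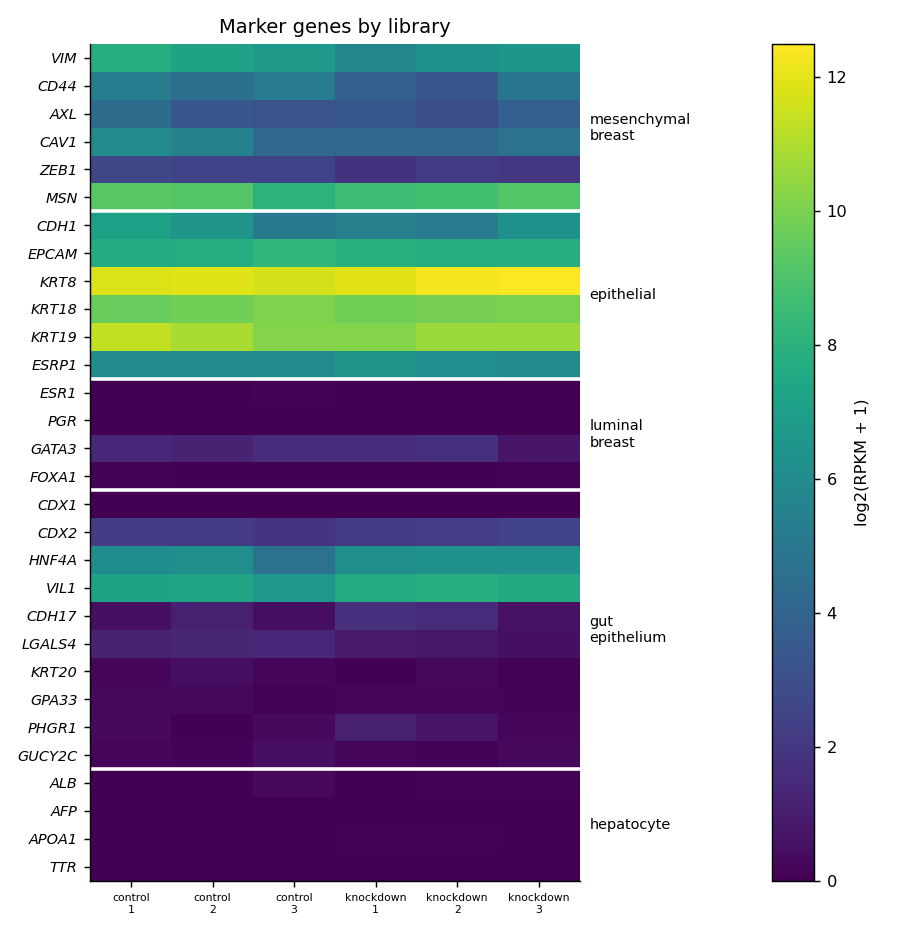
Marker genes in the 6 libraries, coloured by log2(RPKM + 1), with 1 row per gene grouped by list and 1 column per library. The epithelial and mesenchymal rows are coloured in every library, the rows of HNF4A and VIL1 stand out in the gut list, and those of the hepatocyte list are near 0. PGR, CDX1, AFP and TTR had 0 counts in every library.

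Another 2 properties of the libraries bear on the values. In control repeat 2, the deposited FPKM followed the counts of the same library in 0.166% of genes, against 100% in each of the other 5 libraries. The whole reads behind that FPKM column correlated with the counts of control repeat 3 at r = 0.993 and with those of control repeat 2 at 0.954, across 15075 genes, which are not independent replicates. Counts were used as deposited, and the fold changes that changed sign, moved by over 1.5 times or crossed an unadjusted p of 0.05 with these reads are given beside the result. Leaving out control repeat 3 raised the number of genes called by edgeR from 4 of 15075 to 1628 of 15449.

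CLDN4, CLDN7 and CLDN1 were the most abundant of the 9 genes, and TJP3 and OCLN the least. Per length, the mean over the 6 libraries was 88.0 RPKM for CLDN4, 79.9 for CLDN7, 71.0 for CLDN1, 34.0 for TJP1, 33.5 for CLDN12, 19.3 for F11R, 11.8 for CLDN3, 8.99 for OCLN and 6.04 for TJP3. CLDN4 thus lay above 88.5% of the genes tested, and TJP3 above 37.2%. In the control, CLDN4 was at 104 ± 12.8 RPKM, CLDN7 at 85.5 ± 7.54 and CLDN1 at 71.9 ± 5.58 (SD, n = 3 each), and neighbours in this order differed by more than the SD of either. In the Smyca knockdown, these 3 claudins were at 72.2 ± 8.83, 74.3 ± 34.6 and 70.1 ± 17.3 RPKM (SD, n = 3 each) and could not be ordered beyond their spread. The order depended on the gene length: with the union of the exons of GENCODE release 44, CLDN4, CLDN1 and CLDN7 led with 42.2, 38.3 and 32.6 RPKM, and CLDN12 came 7th of the 9, with 5.06. By the authors' lengths, CLDN12 (42.2 ± 11.2 RPKM) and TJP1 (34.0 ± 8.26) did not differ beyond their spread in the control, nor did OCLN (8.06 ± 0.648) and TJP3 (7.76 ± 2.06, SD, n = 3 each).

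None of the 9 genes passed the study's criteria, control over knockdown from 1.5 upwards or from 0.66 downwards with an adjusted p under 0.05, in edgeR's quasi-likelihood test (0 of 9, against 4 of 15075 genes or 0.0265%). MIR23AHG, the target of the knockdown, did not pass in that test either (adjusted p = 0.111). By unadjusted p under 0.05, 3 of the 9 were higher in the control (CLDN4, CLDN12 and TJP3) and 0 were lower, where 10.4% of all genes tested were higher and 8.74% lower. For CLDN4 and CLDN12, each of the 3 control libraries lay above each of the 3 knockdown libraries, and 0 of the 9 genes showed the opposite order, against 12.4% and 12.5% of all genes. DESeq2's Wald test called 1 of the 9, CLDN12, where it called 5.64% of all genes. Of the 9 log2 fold changes (control over knockdown), 8 were above 0, beside 8047 of 15075 genes tested. The median of the 9 was 0.11, against 0.04 over all genes tested. Among the 8, CLDN1 (0.04), CLDN3 (0.02) and TJP1 (0.0035) were near 0. The 9 genes were chosen with earlier results of these data known, so no shared direction is read from these counts. Beside CLDN4 and CLDN12, the mesenchymal markers VIM (log2 fold change 1.09, adjusted p = 0.131 with edgeR) and ZEB1 (0.71, adjusted p = 0.149 with edgeR) lay higher in each control library than in each knockdown library. With CAV1 (1.01) and CD44 (0.94), 4 of the 6 mesenchymal markers were higher in the control by unadjusted p under 0.05 and 0 were lower, and of the 6 epithelial markers 0 were higher and 1, KRT8 (-0.47), was lower. CAV1 was at 27.9 normalized CPM in control repeat 3, below every knockdown library, and with the reads behind the FPKM of control repeat 2 its log2 fold change was 0.60 (adjusted p = 0.523 with edgeR), which left 3 of the 6 (VIM, CD44 and ZEB1) with an unadjusted p under 0.05. Beside KRT8, the log2 fold changes of the epithelial markers went both ways, with CDH1 at 0.72, KRT19 at 0.40, EPCAM at 0.03, KRT18 at -0.05 and ESRP1 at -0.25. With the reads behind the FPKM of control repeat 2, they were 0.37, 0.18, 0.18, 0.04 and -0.26 in the same order. The part of these markers in the levels of the 9 genes was not tested.

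**Figure D2:**
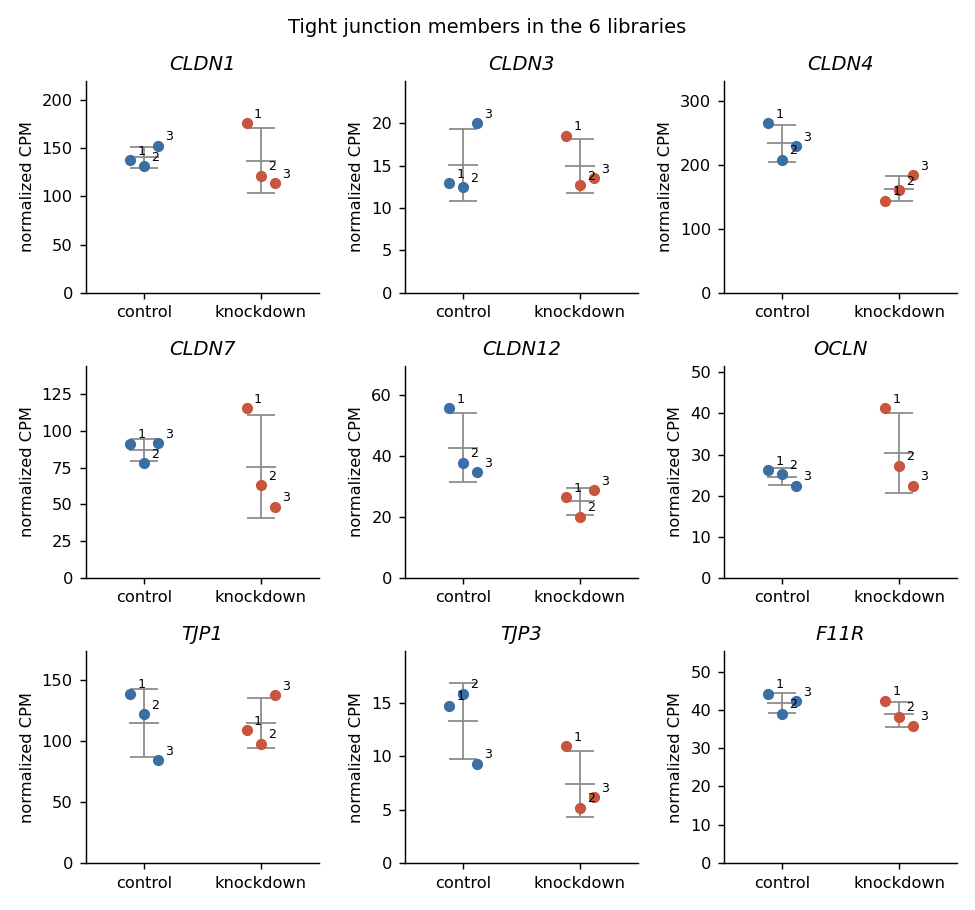
Normalized CPM of the 9 genes in the 3 control and 3 Smyca knockdown libraries, numbered by repeat, with the mean and SD of each group in grey and each axis starting at 0. The groups are apart for CLDN4 and CLDN12 and overlap for the other 7, and knockdown repeat 1 is the highest of the 6 libraries for CLDN1, CLDN7 and OCLN.

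CLDN4, a claudin of simple epithelia, was the most abundant claudin of the 9 genes. Among those of the 9 past an unadjusted p of 0.05, it had the narrowest error. Its gene lies on the plus strand of chromosome 7, from 73799542 to 73832690 in GRCh38. It was at 265, 208 and 230 normalized CPM in the control and at 144, 160 and 184 in the knockdown. The lowest control library was above the highest knockdown library. The means were 234 ± 28.9 and 163 ± 19.9 (SD, n = 3 each), and the log2 fold change was 0.53, with a standard error (SE) of 0.16, a 95% interval of 0.16 to 0.89 and an adjusted p of 0.148 with edgeR's quasi-likelihood test. Over 13 alternative settings, the log2 fold change stayed between 0.43 and 0.61 and the adjusted p between 0.0642 and 0.443. CLDN4 had 2271 to 4295 counts per library, so that counting error was small beside the spread between libraries.

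CLDN3, the neighbour of CLDN4, runs on the minus strand from 73768997 to 73770270, and 29271 bases lie between both genes. It was at 12.9, 12.4 and 20.0 normalized CPM in the control and at 18.5, 12.7 and 13.5 in the knockdown. The highest value was in control repeat 3 and the next in knockdown repeat 1, and the groups overlapped. The log2 fold change was 0.02 (SE 0.26, 95% interval -0.57 to 0.60, adjusted p = 0.977 with edgeR). It was 0.27 with the reads behind the FPKM of control repeat 2, -0.24 without control repeat 3 and 0.20 without knockdown repeat 1. CLDN3 and CLDN4 are both receptors of Clostridium perfringens enterotoxin, and their genes stand side by side. Their counts were in a ratio of 20.6, 16.7 and 11.5 (CLDN4 to CLDN3) in the control and 7.78, 12.6 and 13.6 in the knockdown. These ratios overlapped between the groups (two-sided exact permutation test, p = 0.3).

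CLDN12, a claudin without the C-terminal motif by which most claudins bind scaffolds, had the largest fold change of the 5 claudins. The gene spans 90383721 to 90513402 on the plus strand of chromosome 7. Its levels were 55.7, 37.8 and 34.8 normalized CPM in the control and 26.4, 20.1 and 28.9 in the knockdown. All control libraries were above all knockdown libraries, with control repeat 1 the highest by a wide margin. The means were 42.7 ± 11.3 and 25.1 ± 4.53 (SD, n = 3 each), and the log2 fold change was 0.77 (SE 0.23, 95% interval 0.25 to 1.28, adjusted p = 0.142 with edgeR). It passed the criteria with DESeq2 (0.75, adjusted p = 0.0458) and with edgeR without control repeat 3 (0.89, adjusted p = 0.0361), where 10.5% of all genes were called. Without control repeat 1 the log2 fold change was 0.53, and over 13 alternatives the adjusted p ran from 0.0361 to 0.443. GTPBP10 overlaps CLDN12 on the same strand and had 262 to 311 counts in each library, beside 317 to 902 for CLDN12, and how reads of the shared bases were counted is not given in the sources used here.

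CLDN1, a barrier claudin whose gene lies on chromosome 3 from 190305707 to 190322446 (minus strand), did not differ beyond its spread. It was at 138, 131 and 153 normalized CPM in the control and at 176, 122 and 114 in the knockdown. Knockdown repeat 1 was above every control library, and the other two knockdown libraries were below every control library. The log2 fold change was 0.04 (SE 0.19, 95% interval -0.40 to 0.47, adjusted p = 0.930 with edgeR). With each library left out in turn it ran from -0.09 (without knockdown repeat 3) to 0.25 (without knockdown repeat 1), and it was 0.11 with the reads behind the FPKM of control repeat 2.

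CLDN7, an epithelial claudin found along the lateral membrane as well as at the tight junction, showed the same order of libraries. Its gene lies on the minus strand of chromosome 17, from 7259903 to 7263983. CLDN7 was at 91.3, 78.1 and 91.6 normalized CPM in the control and at 115, 63.0 and 48.4 in the knockdown. The control libraries were close together (87.0 ± 7.66) and the knockdown libraries were not (75.6 ± 35.2, SD, n = 3 each), with the control inside the range of the knockdown. The log2 fold change was 0.20 (SE 0.29, 95% interval -0.46 to 0.86, adjusted p = 0.733 with edgeR). It was 0.63 without knockdown repeat 1 and -0.04 without knockdown repeat 3. ELP5 overlaps the end of CLDN7 on the other strand and had 804 to 1270 counts, and the strand setting of the counting is not given in the sources used here.

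Across all 24 claudin genes of the data, 5 of the 9 genes made up most of the claudin RNA. Counted per length, CLDN1, CLDN3, CLDN4, CLDN7 and CLDN12 held 68.4% to 80.9% of the summed claudin level of a library, and with CLDN11 and CLDN15 98.7% to 99.3%. CLDN4 held 27.7%, 25.2% and 25.1% in the control and 16.1%, 21.6% and 24.7% in the knockdown. CLDN11, a claudin best known from myelin and testis, held 13.5%, 17.4% and 16.2% in the control and 18.0%, 24.9% and 26.6% in the knockdown. The shares of CLDN4 and CLDN11 did not overlap between the groups, in opposite directions, with means of 26.0% ± 1.49 against 20.8% ± 4.34 for CLDN4 and 15.7% ± 1.99 against 23.2% ± 4.53 for CLDN11 (SD, n = 3 each). CLDN16 was the other claudin whose shares did not overlap, at 0.144% to 0.247% in the control and 0.0561% to 0.0675% in the knockdown. These 3 of the 19 claudins compared gave p = 0.1 in a two-sided exact permutation test, the smallest that 3 against 3 libraries allow, and 0.633 after Benjamini-Hochberg adjustment over the 19. CLDN7 held 21.5% ± 0.665 and 20.6% ± 7.25, and CLDN1 18.1% ± 1.34 and 19.7% ± 2.63, (control and knockdown, SD, n = 3 each). The summed claudin level was 424, 366 and 405 RPKM in the control and 397, 329 and 330 in the knockdown, which overlapped (exact permutation test, p = 0.2). Shares of a sum are bound to each other, so a lower share of 1 claudin raises the others.

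**Figure D3:**
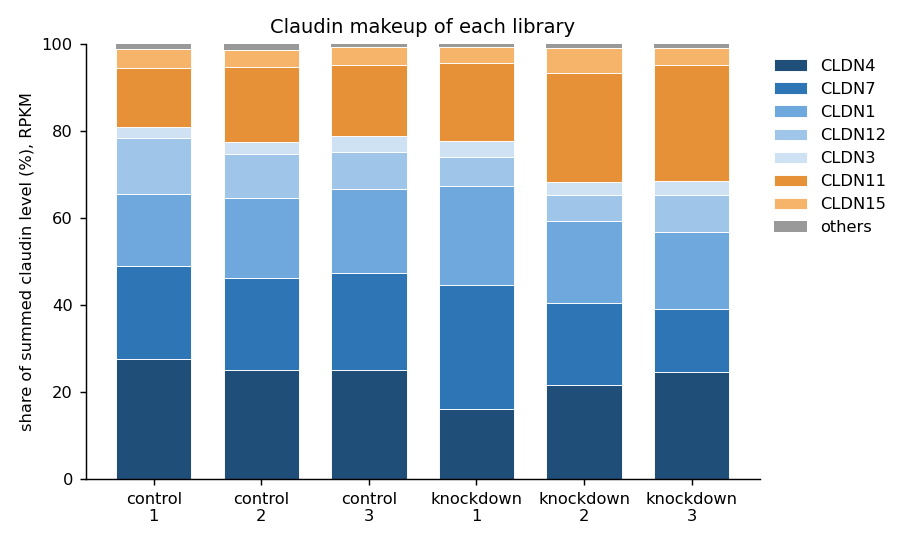
Share of each claudin in the summed claudin level (RPKM, per cent) of the 6 libraries, as stacked bars from 0 to 100. CLDN11, in orange, takes 13.5% to 17.4% in the control and 18.0% to 26.6% in the knockdown, and CLDN4, at the base, 25.1% to 27.7% and 16.1% to 24.7%.

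Occludin, the first transmembrane protein found in tight junctions, alone among the 9 genes had a log2 fold change below 0. Its gene runs from 69492292 to 69558104 on the plus strand of chromosome 5. OCLN was at 26.2, 25.2 and 22.4 normalized CPM in the control and at 41.2, 27.3 and 22.4 in the knockdown. Knockdown repeat 1 was the highest by far, while knockdown repeat 3 and control repeat 3 were level. The log2 fold change was -0.30 (SE 0.23, 95% interval -0.83 to 0.23, adjusted p = 0.508 with edgeR), and it was -0.02 without knockdown repeat 1 and -0.48 without knockdown repeat 3. The pseudogene OCLNP1 had 0 or 1 counts in each library.

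F11R (JAM-A), which binds across the cell border and recruits polarity proteins, varied least of the 9 genes. Its gene lies on the minus strand of chromosome 1, from 160995211 to 161021343. It was at 44.2, 39.0 and 42.3 normalized CPM in the control and at 42.3, 38.2 and 35.9 in the knockdown. The groups overlapped, with a log2 fold change of 0.11 (SE 0.14, 95% interval -0.21 to 0.43, adjusted p = 0.703 with edgeR). A change past the ratio of 1.5 in either direction lies outside that interval.

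TJP1 (ZO-1), the scaffold that binds claudins, occludin and actin, was at the same mean level in both groups. The gene spans 29699367 to 29968915 on the minus strand of chromosome 15. Its levels were 138, 122 and 84.1 normalized CPM in the control and 109, 97.4 and 137 in the knockdown. Control repeat 1 and knockdown repeat 3 were the highest and control repeat 3 the lowest, so the spread lay within the groups. The means were 115 ± 27.8 and 114 ± 20.6 (SD, n = 3 each), and the 95% interval of the log2 fold change ran from -0.49 to 0.49 (adjusted p = 0.994 with edgeR). With the reads behind the FPKM of control repeat 2 it was -0.19, and with each library left out in turn -0.15 to 0.18.

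TJP3 (ZO-3), a scaffold largely found in epithelia, had the largest fold change of the 9 genes and also the largest error. Its gene lies on the plus strand of chromosome 19, from 3708362 to 3750813. TJP3 was at 14.7, 15.9 and 9.29 normalized CPM in the control and at 10.9, 5.19 and 6.14 in the knockdown. Control repeat 3 was below knockdown repeat 1, so the groups overlapped. The means were 13.3 ± 3.52 and 7.42 ± 3.07 (SD, n = 3 each), and the log2 fold change was 0.84 (SE 0.34, 95% interval 0.07 to 1.61, adjusted p = 0.227 with edgeR). TJP3 was also the gene most affected by the FPKM column of control repeat 2, in which 110 reads stood for its 258 counts, and with those reads the log2 fold change was 0.43 and no longer had an unadjusted p under 0.05. It was 0.63 without knockdown repeat 2 and 1.22 without knockdown repeat 1.

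Knockdown repeat 1 was the highest of the knockdown libraries for 6 of the 9 genes (CLDN1, CLDN3, CLDN7, OCLN, TJP3 and F11R) and the lowest for CLDN4. Without it, all 3 control libraries lay above the other two knockdown libraries for 6 of the 9 genes (CLDN1, CLDN4, CLDN7, CLDN12, TJP3 and F11R) and below them for 0. That library was singled out for its high values, so its removal favours this order by construction, and nothing is read from the count. With these 5 libraries, 17.7% of all genes were higher in each control library and 17.3% lower, and edgeR called 0 of the 9 genes and 0 of all 15641 tested. Over the 6 libraries, the levels of the genes moved in different combinations. As log2(normalized CPM + 1), CLDN1 and CLDN7 correlated at r = 0.94, CLDN7 and F11R at 0.90, CLDN4 and CLDN12 at 0.89 and CLDN12 and TJP3 at 0.79, while CLDN3 and TJP1 were at -0.64 and CLDN4 and OCLN at -0.63. These values describe 6 libraries that include the contrast of the groups, and each pair shares the depth of its library. The genes most like TJP3 over the 6 libraries were RBKS, FHIT and MAP1B (r = 0.99, 0.99 and 0.98), and 44 genes were above 0.95. For OCLN, they were RAD17, OXR1 and GALNT9 (r = 0.99, 0.99 and 0.98), with 20 genes above 0.95.

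**Figure D4:**
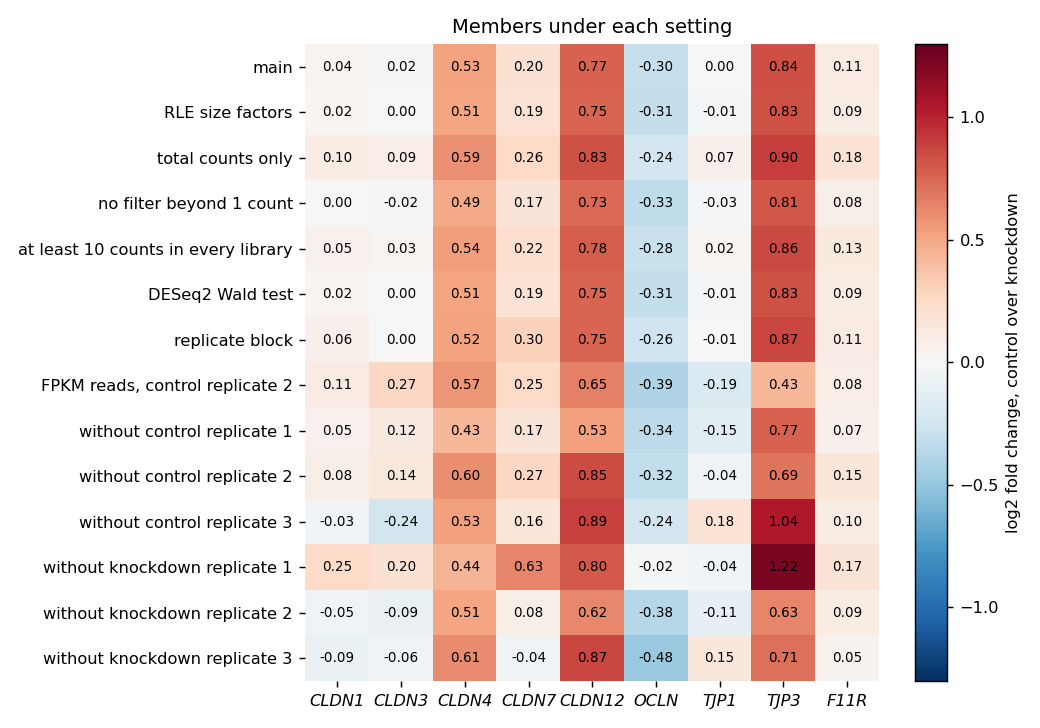
Log2 fold change (control over knockdown) of the 9 genes under the 14 settings, red where control was higher and blue where knockdown was higher. CLDN4, CLDN12 and TJP3 stay above 0 and OCLN below 0 in each row, while CLDN1, CLDN3, CLDN7 and TJP1 change sign in at least 1.

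The other tight junction genes were followed as a background of 46 genes, which were 19 claudins, 10 membrane proteins, 9 scaffolds and 8 polarity proteins and regulators. Of these, 30 had enough counts for the test, and CLDN8, CLDN17, CLDN22 and CLDN25 had 0 counts in every library. None of the 30 passed the study's criteria. Of the 30, 16 were higher and 14 lower in the control, beside 8047 and 7028 of all 15075 genes tested. The median log2 fold change of the 30 was 0.09. By unadjusted p under 0.05, 2 of the 30 were higher in the control and 5 lower, beside 10.4% and 8.74% of all genes. The control libraries lay above those of the knockdown for 5 of the 30 and below for 5, beside 12.4% and 12.5% of all genes.

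By kind, the genes higher in the control were counted without a test. Of 6 other claudins, 4 were higher in the control, of 9 membrane proteins 4, of 7 scaffolds 2 and of 8 polarity proteins and regulators 6. Per length, CLDN11 (62.2 ± 4.33 RPKM in the control and 80.4 ± 8.23 in the knockdown), CLDN15 (16.4 ± 2.17 and 15.3 ± 3.42) and CLDN23 (1.15 ± 0.439 and 1.03 ± 0.189) led the other claudins (SD, n = 3 each). CLDN11 was at 67.3, 74.9 and 77.0 normalized CPM in the control and at 84.1, 96.1 and 103 in the knockdown (log2 fold change -0.37, SE 0.14, adjusted p = 0.213 with edgeR). Every control library was below every knockdown library. CLDN16, a claudin of magnesium reabsorption in the kidney, was at 0.832 to 1.29 normalized CPM in the control and 0.264 to 0.381 in the knockdown, or 4 to 6 counts per knockdown library (log2 fold change 1.70, SE 0.44, adjusted p = 0.126 with edgeR).

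Among the membrane proteins, the tricellular junction protein LSR was the most abundant (285 ± 31.1 and 269 ± 36.8 RPKM, SD, n = 3 each), followed by the polarity protein CRB3 (23.9 ± 3.93 and 24.3 ± 4.17). Both relatives of occludin, MARVELD2 (tricellulin) and MARVELD3, were past an unadjusted p of 0.05 and had log2 fold changes below 0. That of OCLN was also below 0 but not past that p (unadjusted p = 0.231 with edgeR). MARVELD2 was at 22.0, 22.7 and 24.6 normalized CPM in the control and at 40.4, 34.3 and 24.4 in the knockdown (log2 fold change -0.52, SE 0.20, adjusted p = 0.220 with edgeR). Its log2 fold change was -0.35 without knockdown repeat 1 and -0.70 without knockdown repeat 3. MARVELD3 was at 14.3, 17.2 and 21.4 in the control and at 26.9, 22.5 and 23.8 in the knockdown (-0.47, SE 0.20, adjusted p = 0.239 with edgeR). The groups overlapped for MARVELD2 and did not for MARVELD3. With the reads behind the FPKM of control repeat 2, which were 459 for 279 counts of MARVELD3, its groups overlapped and its log2 fold change was -0.24 (adjusted p = 0.596 with edgeR), no longer with an unadjusted p under 0.05. ESAM, an adhesion molecule of endothelium, was at 0.832 to 1.85 normalized CPM in the control and 0.127 to 0.726 in the knockdown (log2 fold change 1.75, SE 0.61, adjusted p = 0.179 with edgeR).

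The scaffold CGNL1 (paracingulin), which links the junction to regulators of small GTPases, had the smallest adjusted p of the 30 genes. It was at 25.5, 42.7 and 33.6 normalized CPM in the control and at 59.8, 72.8 and 68.2 in the knockdown. All control libraries were below all knockdown libraries, with a log2 fold change of -0.98 (SE 0.20, adjusted p = 0.111 with edgeR). CGNL1 passed the criteria with DESeq2 (adjusted p = 0.00228), and with edgeR when every gene with at least 1 count was tested (adjusted p = 0.00202), where 3.01% of all genes were called. MAGI1, a scaffold with many PDZ domains, was at 56.2, 53.2 and 60.2 in the control and at 71.3, 63.0 and 86.4 in the knockdown (-0.38, SE 0.16, adjusted p = 0.239 with edgeR). With the reads behind the FPKM of control repeat 2 it was -0.34 and not past an unadjusted p of 0.05. Per length, CGN (27.9 ± 7.04 and 28.5 ± 1.08 RPKM) and MAGI1 (19.3 ± 1.20 and 25.1 ± 4.03) were among the 3 highest scaffolds, and YBX3 (304 ± 44.5 and 264 ± 21.4), ARHGEF2 (174 ± 67.4 and 121 ± 35.8) and SYMPK (106 ± 8.96 and 114 ± 12.2) led the regulators (SD, n = 3 each).

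**Figure D5:**
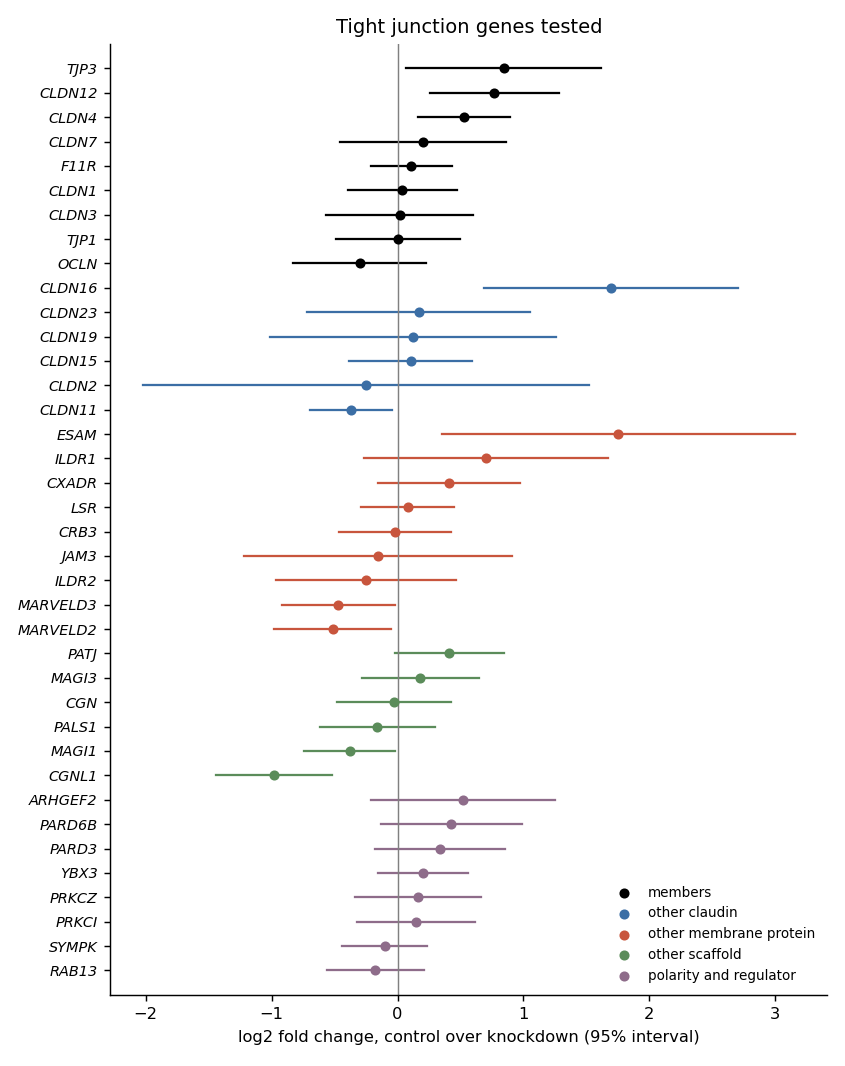
Log2 fold change, control over knockdown, of the 9 genes (black) and all but 1 of the 30 other tight junction genes tested, with 95% intervals from edgeR. The intervals of TJP3, CLDN12 and CLDN4 lie above 0 and that of OCLN spans 0, and among the scaffolds CGNL1 lies lowest, at -0.98.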

How the data were processed

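RNA was sequenced from 3 control and 3 Smyca knockdown libraries of cells labelled MDA-MB-231 after rRNA removal, with a strand-specific kit. Reads were aligned by the authors to GRCh38 with TopHat2 2.0.12 (submitters' processing notes) and counted with HTSeq. The annotation release and strand setting are not given in the sources used here. The authors deposited raw read counts and FPKM for 58302 Ensembl genes. All tests ran on the counts. The deposited FPKM gave gene lengths and a check of the files. Symbols and coordinates came from GENCODE release 44, promoters from RefSeq.

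In R 4.3.3, counts were filtered with filterByExpr (15075 genes kept, all 9 members among them), scaled with TMM and tested with edgeR 4.0.16 (quasi-likelihood, 2 groups, Benjamini-Hochberg over all genes tested), which stood in for the paper's DESeq. The biological coefficient of variation was 25.2%. The code was tested on simulated counts. Alternatives were RLE or no composition factor, other filters, DESeq2 1.42.0, the replicate block, the reads behind the FPKM of control repeat 2 and each library left out. The union of GENCODE exons as gene length was added after seeing the data.

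Members and lists were chosen with earlier results of these data known. All 9 members were named, and of the other lists the genes called, those with an unadjusted p under 0.05, the 3 highest per length and the 3 most like the members with the largest positive and negative fold change. Promoters of F11R were not used here. A further gene is counted in its list, and its own result is not reported here.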

Additional observations from a re-analysis of the deposited data

How the results depend on the processing

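No alternative called CLDN1, CLDN3, CLDN4, CLDN7, OCLN, TJP1, TJP3 or F11R. The count of members called was 0 and became 1 with DESeq2 (CLDN12) and 0 to 1 with each repeat left out (1 without control repeat 3), and 3 had an unadjusted p under 0.05. For the other tight junction genes the count was 0, then 1 with no filter, 1 with DESeq2 (CGNL1 in both), 0 to 2 with each repeat left out (CLDN16 and CGNL1 without control repeat 3), and 7 by unadjusted p. Members whose groups did not overlap numbered 2, and 2 to 6 with each repeat left out (6 without knockdown repeat 1, the highest knockdown library for 6 of the 9 members). Fold changes near 0 changed sign. TJP1 was at -0.0112 with RLE size factors, -0.0279 with no filter, -0.0112 with DESeq2, -0.19 with the reads behind the FPKM of control repeat 2 and -0.15 to 0.18 with each repeat left out. CLDN3 was at -0.0183 with no filter. With each repeat left out, CLDN1 ran from -0.0896 to 0.25, CLDN3 from -0.24 to 0.20 and CLDN7 from -0.0446 to 0.63. The cause was not tested.

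Over all genes, 4 were called in the fit reported, 8 with total counts, 916 with no filter, 5 with at least 10 counts in every library, 850 with DESeq2, 10 with the reads behind the FPKM, and 0 to 1628 with each repeat left out. The labels number the repeats in both groups. Same-numbered libraries deviated from their group means with correlations of 0.06, 0.08 and -0.01 over all genes. For libraries with different numbers the correlations ran from -0.18 to 0.08. With 3 libraries per group, these values cannot show whether same-numbered libraries were handled together. With the replicate block, 0 of the 9 members and 0 of all genes were called, 2568 had an unadjusted p under 0.05, and TJP1 was at -0.0089. With 4 to 6 counts of CLDN16 and 2 to 11 of ESAM per knockdown library, their fold changes rest on few reads.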
